A study of Homo sapiens with 8 samples.

Results

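Genes that carry decitabine into cells, phosphorylate it and break it down were examined on 8 expression arrays of K562 and KBM5, established human lines of chronic myeloid leukaemia. They were picked by name as 10 genes: the carriers SLC29A1 and SLC29A2, the kinases DCK, CMPK1, NME1 and UCK2, and the deaminases and hydrolases CDA, DCTD, SAMHD1 and DCTPP1. Of the 10, 8 had a probe set named in the supplied annotation, 1 each, among 17687 named genes in all. NME1 and UCK2 were not analysed here. Each line had 1 array for each of 4 treatments, so no spread between repeats of a treatment was measured. Control cells had no exposure. Others received OR21 (100 nM, 3 days), imatinib (IM, 1000 nM, 24 hours), or OR21 and then IM, called the combination, whose OR21 dose comes from the treatment protocol. IM inhibits BCR-ABL1, the fusion kinase that drives this leukaemia. OR21 (OR-2100) is described in the series title only as a new demethylating agent. The study asked which expression changes belong to the combination.

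Decitabine is a deoxycytidine analogue that has to be incorporated into DNA before it traps DNA methyltransferases. Equilibrative nucleoside transporters such as SLC29A1 let it into the cell, DCK adds the first phosphate, CMPK1 the next, and nucleoside diphosphate kinases such as NME1 the last. CDA deaminates the free nucleoside, DCTD the monophosphate, and SAMHD1 and DCTPP1 act on the triphosphate. UCK2 phosphorylates uridine and cytidine and is known for activating the ribonucleoside azacitidine rather than decitabine.

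Values are the linear intensities deposited by the authors for each probe set. Background on an array was set at the 95th percentile over 612 negative controls and lay between 161 and 263. Median intensity over all probe sets was between 77.8 and 83.3. Lineage markers separated the lines. All 5 measured erythroid markers (HBE1, HBZ, GATA1, KLF1 and TAL1) were above background on each K562 array and none on any KBM5 array. Of 6 measured granulocytic and monocytic markers, 4 to 6 were above background on the KBM5 arrays and at most 1 on a K562 array. Of 4 measured lymphoid markers at most 1 was above background on any array, and CD3E, MS4A1 and CD2 were at background on all 8. Of 4 epithelial markers, 2 were above background on each K562 array and none in KBM5.

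Differences are in log2 intensity. Each drug effect within a line rests on 2 array pairs, with and without the other drug, which are repeats only if the drug effects are additive in log2. Effects over both lines use the lines as repeats, so their p-values set each effect against how far the treatment effects differed between the lines. All p-values reflect no more than the spread among these arrays, which may in part be technical. All tests are limma's, fitted over the 17687 genes with Benjamini-Hochberg adjustment, with calls made below an adjusted p of 0.05. Comparisons within and over the lines share arrays and are not independent of each other. In bulk RNA, fewer cells of a type and less RNA per cell cannot be told apart.

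With IM, both carriers, DCK and DCTPP1 fell in KBM5 and SAMHD1 rose. In K562, SLC29A2 and DCTPP1 fell and no member was called higher, though SLC29A1 was higher in both pairs. In KBM5, 5 of the 8 measured members were called, 4 lower and 1 higher, where 21.4% of all genes and 36.6% of the brighter genes were called (brighter meaning a mean above that of the median gene). In K562, 2 of 8 were called, both lower, against 13.4% of all genes and 22.6% of the brighter ones. That share in K562 is near the one among brighter genes. The median difference of the 8 members was -0.73 in KBM5 and -0.36 in K562, beside 0.030 and 0.068 over all genes. Over both lines 2 of 8 members fell, SLC29A2 and DCTPP1, against 7.63% of all genes and 14.2% of the brighter ones. The IM effect itself differed between the lines for 2 of 8 members, SLC29A1 and SAMHD1, where 10.2% of all genes and 16.7% of the brighter ones passed that test.

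**Figure D1:**
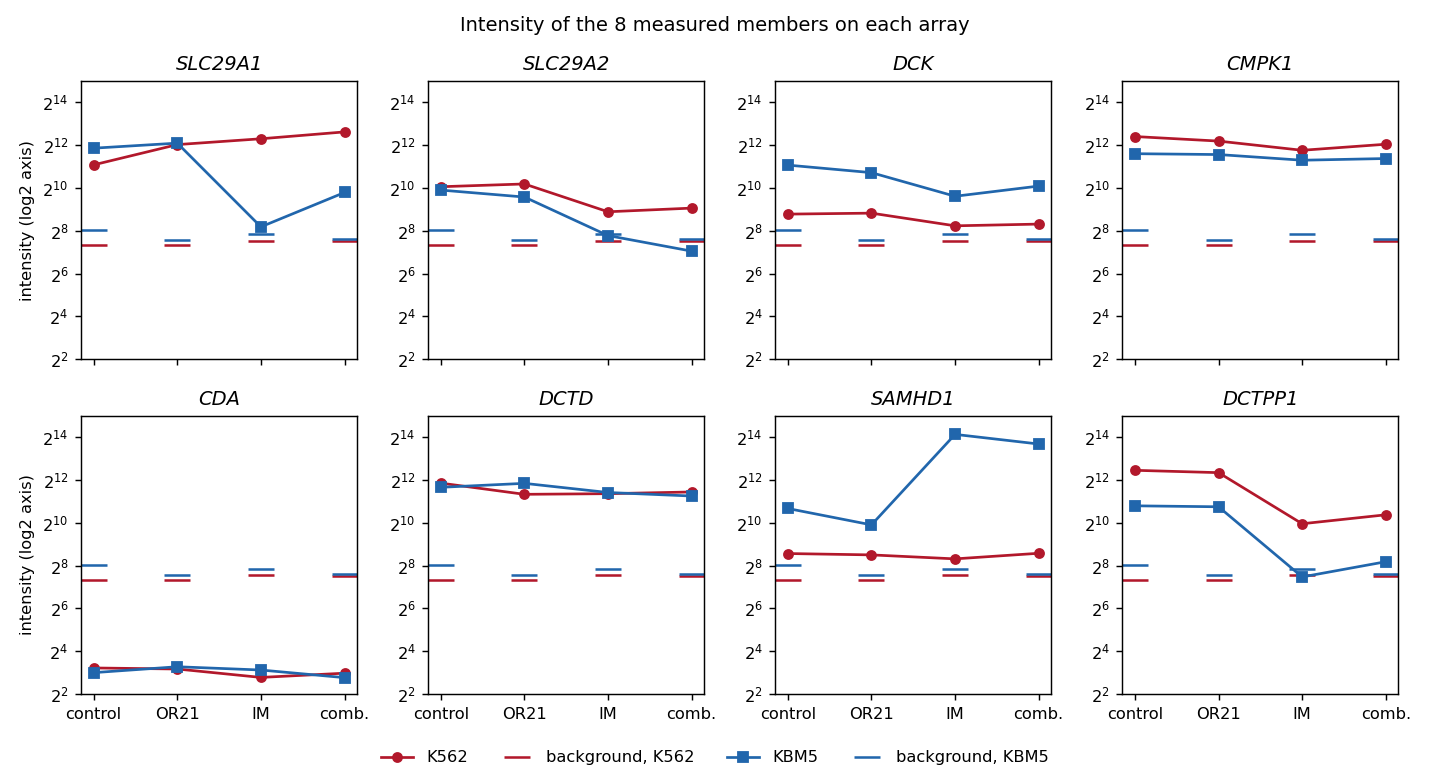
Intensity of each measured member (vertical axis, log2 scale) on the 8 arrays, 1 point per array, joined by line (circles K562, squares KBM5), with short dashes for each array's background. SAMHD1 in KBM5 reached 17966 and 13151 with IM, SLC29A1 in KBM5 dropped to 291 and 885, and CDA stayed between 6.78 and 9.65.

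The carrier SLC29A1 (ENT1) is the main route for deoxycytidine analogues in blood cells. Its intensity in KBM5 was 3720 in the control, 4381 with OR21, 291 with IM and 885 with the combination. In K562 it was 2167 in the control, 4178 with OR21, 5045 with IM and 6302 with the combination. Both KBM5 arrays with IM were thus below every other array, and both K562 arrays with IM were above every other array. The IM pairs in KBM5 differed by -3.68 without OR21 and -2.31 with it. The fitted fall was 2.99 ± 0.33 (SE), or 7.96-fold, with a limma adjusted p of 0.000129. The KBM5 IM value was 1.27 times background, so the sizes that use it, also between the lines, are not exact. In K562 the pairs differed by 1.22 and 0.59, and the fitted difference of 0.91 ± 0.33 (95% interval 0.18 to 1.63) had a limma adjusted p of 0.102. It was called with trend and robust moderation (limma adjusted p = 0.0341) and without any 1 of the KBM5 arrays, which leaves both K562 pairs. Without any 1 of the K562 arrays it rested on 1 pair, at 1.22 or 0.59, and was not called. The effects in the 2 lines differed by 3.90 ± 0.46 (limma adjusted p = 0.000793). With each array left out in turn this difference stayed between 3.21 and 4.58, with the effect in 1 line then resting on 1 pair. Because the values went opposite ways in the 2 lines, the effect over both lines was -1.04 ± 0.79 (limma adjusted p = 0.49). Untreated, K562 had the lower intensity, 1.72-fold below KBM5. With IM it was 17.4-fold above, and with the combination 7.12-fold, each on 1 array pair.

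SLC29A2 (ENT2), a related carrier of broader substrate range, was lower with IM in both lines. In K562 it measured 1067 in the control and 1167 with OR21, against 474 with IM and 534 with the combination. In KBM5 it measured 957 and 764 without IM, and 219 and 132 with IM, both below that array's background. The groups with and without IM did not overlap in either line. In K562 it fell by 1.15 ± 0.24 (limma adjusted p = 0.0102). Without any 1 of the 4 K562 arrays this effect rested on 1 pair, and the adjusted p lay between 0.148 and 0.192. In KBM5 it was at least 4.06-fold lower, with a limma adjusted p of 8.65e-05 for the measured difference of -2.33 ± 0.24. Over both lines it fell by 1.74 ± 0.31 (limma adjusted p = 0.0246). That call was lost with any 1 array left out other than the K562 control or the K562 combination, at adjusted p between 0.0687 and 0.115. The difference between the lines, 1.18 ± 0.34, missed the threshold (limma adjusted p = 0.052), and it passed after quantile normalization at 0.0361. The sizes of this difference and of the effect over both lines are not exact, because both KBM5 arrays with IM were below background. In K562 the carriers therefore moved apart in value, SLC29A1 at 0.91 and SLC29A2 at -1.15.

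**Figure D2:**
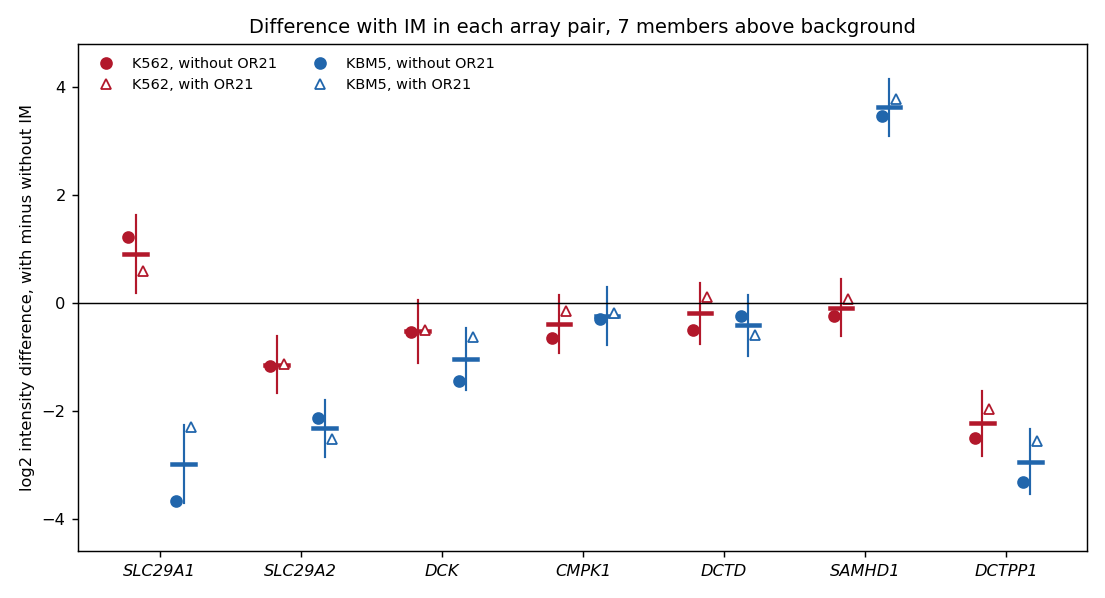
Log2 intensity difference with minus without IM (vertical axis) in each line, for the 7 members above background on at least 1 array. In KBM5, SLC29A2 was below background on both arrays with IM and DCTPP1 on the IM array. Filled circles are pairs without OR21, open triangles pairs with OR21, short bars the fitted effect and vertical lines its 95% interval. SAMHD1 in KBM5 lies at 3.46 and 3.78, SLC29A1 points down in KBM5 and up in K562, and SLC29A2 and DCTPP1 point down in all 4 pairs.

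DCK, the deoxycytidine kinase that limits the activation of decitabine, was far higher in KBM5 than in K562. Its intensity in K562 was 439 in the control, 453 with OR21, 300.5 with IM and 318 with the combination. In KBM5 it was 2150, 1684, 783 and 1089 in the same order. The K562 values were between 1.62 and 2.79 times background, so sizes that use them are not exact. Every KBM5 array was above every K562 array, and the fitted line difference was -1.84 ± 0.20 (K562 minus KBM5, 3.57-fold, limma adjusted p = 0.000678). IM lowered DCK in KBM5 by 1.04 ± 0.26 (2.06-fold, limma adjusted p = 0.0165), with pairs of -1.46 and -0.63. Without the KBM5 control or the KBM5 IM array, only the pair of -0.63 remained and the limma adjusted p was 0.22. In K562 the pairs were -0.55 and -0.51, and the effect of -0.53 ± 0.26 was not called (limma adjusted p = 0.233). The difference of the IM effects was 0.51 with a 95% interval from -0.31 to 1.34, so it was not resolved here.

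CMPK1, the kinase of the following step, varied less. Its intensity lay between 3474 and 5424 in K562 and between 2518 and 3111 in KBM5, which did not overlap. It was 1.56-fold higher in K562 (log2 difference 0.64 ± 0.17, limma adjusted p = 0.0249), a call lost without any 1 array, at adjusted p between 0.0559 and 0.0882. All 4 IM pairs were below 0, from -0.64 to -0.15, and neither line's effect was called (K562 -0.40 ± 0.24 with limma adjusted p = 0.343, KBM5 -0.25 ± 0.24 with limma adjusted p = 0.569).

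SAMHD1 cleaves deoxynucleoside triphosphates and is known in leukaemia for inactivating nucleoside analogue triphosphates. In K562 its intensity was 378 in the control, 362 with OR21, 318 with IM and 381 with the combination, 1.71 to 2.35 times background. In KBM5 it was 1627 in the control and 957 with OR21, and 17966 and 13151 with IM and the combination. The KBM5 arrays with IM stood clear of the other 6 arrays. The rise in KBM5 was 3.62 ± 0.24 (12.3-fold, limma adjusted p = 9.58e-06), above the difference of 99.9% of all genes. Without any 1 of the KBM5 arrays it rested on 1 pair, at 3.46 or 3.78. K562 had -0.09 ± 0.24 (95% interval -0.62 to 0.44, limma adjusted p = 0.868), a value of 0.025 after quantile normalization. The effects differed by 3.71 ± 0.34, lower in K562 (limma adjusted p = 0.00022). Over all 4 treatments SAMHD1 was lower in K562 by 3.61 ± 0.74 (limma adjusted p = 0.00996). That average covers a 4.30-fold gap in the controls and a 56.5-fold gap with IM. With the K562 values so near background, sizes that use them are not exact.

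Markers of the granulocytic and monocytic lineage, in which SAMHD1 is known to be abundant, also moved in KBM5. Of the 6 measured, 4 rose with IM (CSF3R, AZU1, CEBPA and SPI1) and MPO fell, with a measured difference of -0.99 ± 0.27. The size for MPO is not exact because it was below background on the KBM5 control and IM arrays. PRTN3 had -0.45 and was not called. CSF3R, the G-CSF receptor, rose by a measured 3.49 ± 0.27, not an exact size because it was below background on the KBM5 control array. Their summed intensity in KBM5 was 54098 and 101765 without IM and 91601 and 135835 with it, and in K562 between 263 and 541 on all arrays. In K562 SPI1, which encodes a myeloid transcription factor, fell and was below background on both arrays with IM. The part of these markers in the SAMHD1 result was not tested.

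DCTPP1 hydrolyses deoxycytidine triphosphates, methylated and modified forms among them. In K562 its intensity was 5608 in the control and 5199 with OR21, and 993 and 1326 with IM and the combination. KBM5 had 1775 and 1720 without IM, and 177 with IM and 290 with the combination, of which 177 was below background. In both lines the arrays with IM lay below those without, and all KBM5 values without IM were above the KBM5 and K562 values with it. The fall was 2.23 ± 0.27 in K562 (4.71-fold, limma adjusted p = 0.000537). In KBM5 the measured difference was -2.95 ± 0.27 (limma adjusted p = 4.55e-05), whose size is not exact because 1 of 2 arrays with IM was above background. Without any 1 array of a line, that line's effect rested on 1 pair, at -2.50 or -1.97 in K562 and -3.32 or -2.57 in KBM5. The difference between these effects, 0.71 ± 0.38 (95% interval -0.14 to 1.56), was not called (limma adjusted p = 0.308). DCTPP1 was higher in K562 than KBM5 under every treatment, by 3.16-fold in the controls, 3.02-fold with OR21 and 4.57-fold with the combination, and with IM the KBM5 array was below background (fitted difference 1.98 ± 0.21, limma adjusted p = 0.000617).

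The deaminases gave no called change. DCTD, which converts deoxycytidylate to deoxyuridylate and also acts on decitabine monophosphate, lay between 2576 and 3705 in K562 and between 2438 and 3675 in KBM5, and these ranges overlapped almost fully. Its IM effect was -0.19 ± 0.25 in K562 (limma adjusted p = 0.696) and -0.42 ± 0.25 in KBM5 (limma adjusted p = 0.31). The line difference was -0.045 with a 95% interval from -0.51 to 0.42. CDA, the cytidine deaminase that clears decitabine, lay between 6.78 and 9.65 on all 8 arrays and was below background on each. No fold is given for it.

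Between the lines DCK and SAMHD1 were called higher in KBM5, and DCTPP1 and CMPK1 higher in K562. These are 4 of 8 members, where 32.0% of all genes and 51.0% of the brighter ones were called, so the count is near that of other bright genes. SLC29A1 (1.53 ± 0.79, limma adjusted p = 0.205) and SLC29A2 (0.97 ± 0.31, limma adjusted p = 0.0521) did not pass as line averages. SLC29A2 passed among the brighter genes alone (limma adjusted p = 0.0436) and without either control array (0.0305).

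OR21 called none of the 8 members, in K562, in KBM5 or over both lines, where limma called 0.0905%, 0.543% and 0% of all genes. The OR21 effect differed between the lines for none of them and for 0.102% of all genes. At an unadjusted p under 0.05 the members numbered 0, 2 and 0. For SLC29A1 the differences were 0.95 without IM and 0.32 with IM in K562, and 0.24 and 1.61 in KBM5. All 4 pairs were higher with OR21, at 0.63 ± 0.33 in K562 (limma adjusted p = 0.999) and 0.92 ± 0.33 in KBM5 (limma adjusted p = 0.298). SAMHD1 in KBM5 was lower in both OR21 pairs, by -0.77 and -0.45 (fitted -0.61 ± 0.24, limma adjusted p = 0.335). SLC29A2 in KBM5 had pairs of -0.33 and -0.73, the latter between arrays below background. DCK, CMPK1, DCTD and DCTPP1 had fitted OR21 differences between -0.22 and 0.33 in either line, the DCTPP1 value in KBM5 using 1 array below background. For CMPK1 the 95% intervals ran from -0.50 to 0.57 in K562 and from -0.52 to 0.56 in KBM5.

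**Figure D3:**
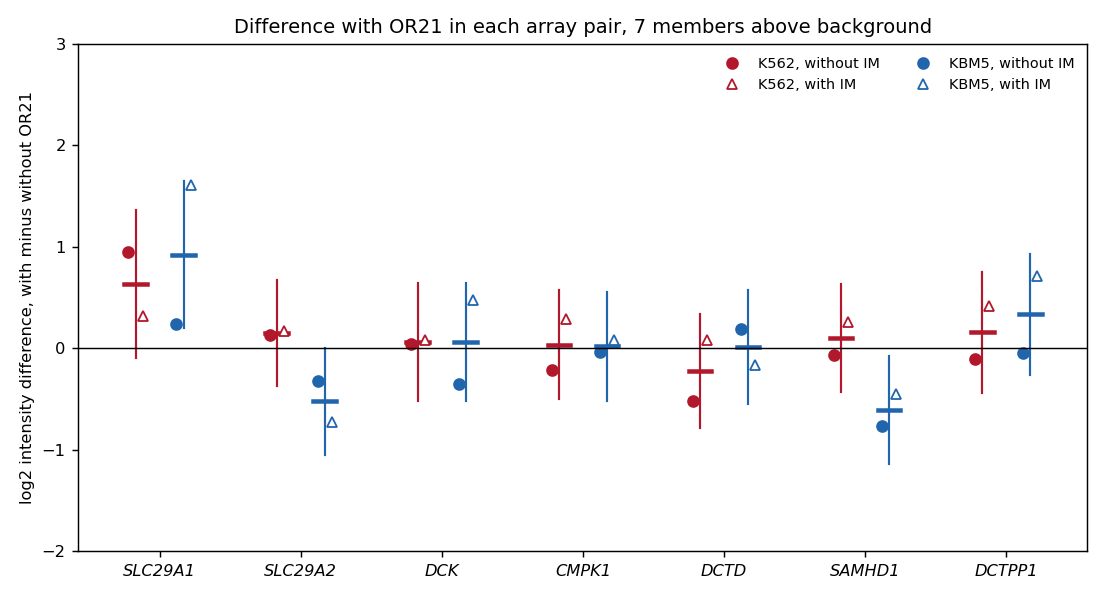
Log2 intensity difference with minus without OR21 (vertical axis) in each line, for the 7 members above background on at least 1 array. The SLC29A2 pair with IM in KBM5 lies between arrays below background, and the DCTPP1 pair uses an IM array below it. Filled circles are pairs without IM, open triangles pairs with IM, short bars the fitted effect and vertical lines its 95% interval. SLC29A1 is above 0 in all 4 pairs, up to 1.61, and no member was called.

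The combination, OR21 and then IM, was set against the control. In K562, SLC29A1 was 2.91-fold higher, DCTPP1 4.23-fold lower, SLC29A2 2.00-fold lower and DCK 1.38-fold lower on the combination array than on the control array. In KBM5, SAMHD1 was 8.08-fold higher, DCTPP1 6.12-fold lower, SLC29A1 4.20-fold lower and DCK 1.97-fold lower, and SLC29A2 ended below background. Over both lines none of the 8 members was called by limma, against 0.198% of all genes, and 3 had an unadjusted p under 0.05. DCTPP1 came nearest at -2.35 ± 0.30 (limma adjusted p = 0.0549) and was called with an intensity trend and robust moderation (0.0488), followed by SLC29A2 at -1.93 ± 0.44 (limma adjusted p = 0.108). The OR21 by IM interaction called 0 of 8 members and 0% of all genes, with no member at an unadjusted p under 0.05. In KBM5 with IM, OR21 went with a 1.61 higher SLC29A1 on 1 array pair, and DCTPP1 was below background on the IM array and above it on the combination array.

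Around the members, 57 other genes of nucleoside transport, nucleotide metabolism and DNA methylation were listed, of which 49 were measured and 35 were above background on at least 1 array. In KBM5 IM called 17 lower and 5 higher, where 21.4% of all genes and 36.6% of the brighter ones were called. In K562 it called 8 lower and 3 higher, beside 13.4% and 22.6%. The 49 include 14 genes at background on all arrays, so these counts are not on the same footing as the share of brighter genes. Their median difference was -0.19 in KBM5 and -0.038 in K562. In pyrimidine and deoxynucleotide synthesis 7 of 9 fell and 1 rose in KBM5 and 4 of 9 fell and 1 rose in K562. Of the 4 genes of DNA methylation 3 fell in KBM5 and 1 in K562. The 3 in KBM5 include DNMT3B, which was at background on every KBM5 array. In KBM5 the 4 largest falls were those of the ribonucleotide reductase subunit RRM2 (-5.05 ± 0.36, above background on 1 of 2 arrays with IM), the thymidylate synthase TYMS (-4.84 ± 0.27), UHRF1, which guides DNMT1 to replicating DNA (-3.88 ± 0.32), and the thymidine kinase TK1 (at least 9.25-fold lower). In K562 TK1 had 0.027 and TYMS -0.12. The effects on TYMS differed between the lines by 4.72 ± 0.39. Those on TK1 also differed by test (limma adjusted p = 0.000385), with no exact size because TK1 was below background on both KBM5 arrays with IM. On the upper side in KBM5 stood the adenosine deaminase ADA (2.17 ± 0.24), the nucleotidase NT5C2 (1.43 ± 0.23), the p53-inducible reductase subunit RRM2B (0.80 ± 0.23) and SLC29A3, which was at background on all 8 arrays. NT5C2, which removes phosphate from nucleoside monophosphates, fell in K562 by 0.85 ± 0.23, and the difference of -2.28 ± 0.33 between the lines was called (limma adjusted p = 0.00189).

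In K562 the largest falls in this list were those of the de novo methyltransferase DNMT3B (-2.31 ± 0.26), the cytidine triphosphate synthase CTPS1 (-1.61 ± 0.23), the pyrimidine synthesis enzyme DHODH (-1.53 ± 0.23) and CAD, the first enzyme of that route, at least 2.60-fold lower. The called rises were those of the mitochondrial nucleotidase NT5M (1.02 ± 0.23), CTPS2 (0.86 ± 0.24) and the carrier SLC28A3, which was at background on all arrays. Over both lines 6 of 49 fell, where 7.63% of all genes and 14.2% of the brighter ones were called. Those 49 again include genes at background on all arrays, so that count is not on the same footing as the share of brighter genes. The falls were led by CTPS1 (-2.20 ± 0.28), CAD (at least 2.72-fold lower) and DNMT3B (-1.84 ± 0.34, not above background in KBM5). DTYMK, the thymidylate kinase, came next (-1.72 ± 0.24, above background on 1 of 4 arrays with IM). None of the 5 other nucleoside carriers was above background on any array, nor were the exporters ABCB1, ABCC11 and ABCG2. DNMT1, the maintenance methyltransferase trapped by decitabine, fell by 2.00 ± 0.23 in KBM5 and had -0.31 in K562. Between the lines, NT5C3B was at least 37.7-fold and DNMT3B at least 2.72-fold higher in K562, and DUT, which hydrolyses deoxyuridine triphosphate, was higher by 2.36 ± 0.55. TK1 was also called higher in K562 (limma adjusted p = 0.00942), with 2 of 4 KBM5 arrays below background and so no exact size. ADA was at least 4.34-fold lower in K562, UCK1, a kinase of uridine and cytidine, 7.47-fold lower, RRM2B 5.40-fold and NT5C2 5.35-fold lower. OR21 called none of the 49 in either line.

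**Figure D4:**
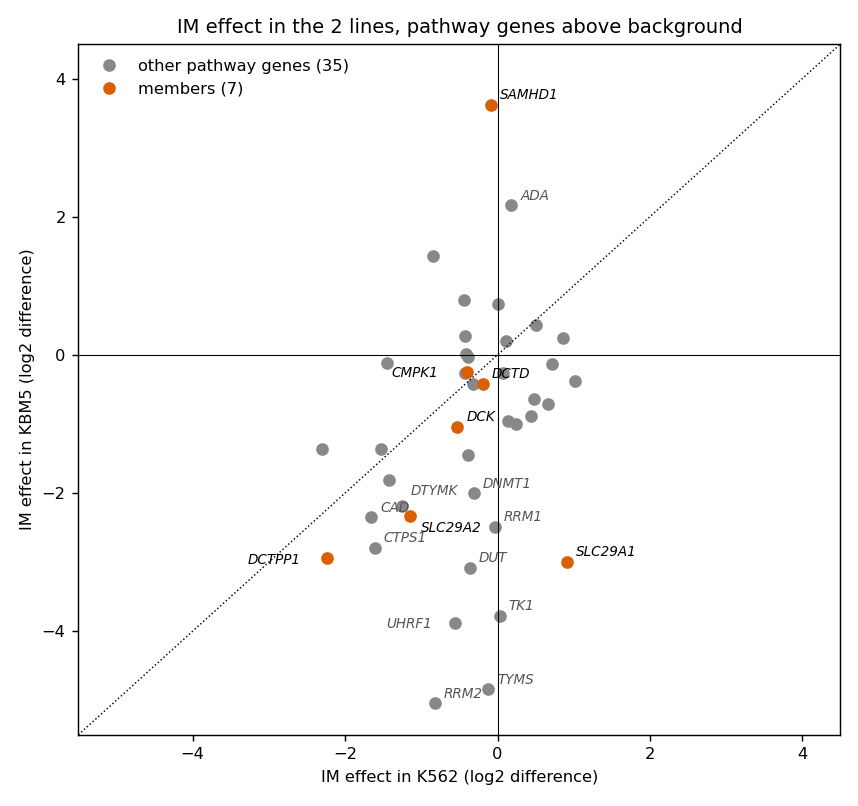
Fitted IM effect in K562 (horizontal axis) and in KBM5 (vertical axis), both log2 differences, for the 7 members and 35 other pathway genes above background on at least 1 array. The dotted line marks equal effects. SAMHD1 (-0.09 and 3.62) and SLC29A1 (0.91 and -2.99) lie far from it, and DCTPP1 (-2.23 and -2.95) lies near it.

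Genes of growth fell in KBM5 as SLC29A1, SLC29A2, DCK and DCTPP1 did, while SAMHD1 rose and the other members were not called. All 5 listed (MKI67, PCNA, MCM2, CCNB1 and MYC) fell with IM in KBM5, with PCNA at -3.95 ± 0.32. MCM2 had a measured difference of -4.08 ± 0.31, whose size is not exact because it was below background on both KBM5 arrays with IM. In K562 only MYC was called (-2.33 ± 0.25). Their summed intensity was 38814 and 30722 without IM and 5451 and 5910 with it in KBM5, and 31971 and 31087 against 17911 and 16101 in K562. The part of growth state in the falls of SLC29A1, DCK and DCTPP1 was not tested.

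By profile over the 8 arrays, among 7099 genes above background on at least 4 arrays, the genes nearest to SLC29A1 were SLC39A8, TTK and RAD51AP1. Their root-mean-square distances, after centring each gene on its mean, were 0.37, 0.41 and 0.42 log2 units, where the median gene lay at 1.49. Nearest to SAMHD1 were TRAF3IP3 (0.45), ANKRD44 (0.51) and ADA (0.55), with a median gene at 2.37. UBE2S (0.31), PHB1 (0.35) and IARS1 (0.37) were nearest to DCTPP1. PSMA3 (0.19), MTHFD1 (0.20) and EXOSC2 (0.21) were nearest to SLC29A2. MED30 (0.21), PRNP (0.21) and COLGALT1 (0.23) were nearest to DCK, and PSMD4 (0.08), RANBP9 (0.09) and FGFR4 (0.10) to CMPK1. These distances describe 8 arrays that share their line and treatment, and they carry no test.

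The bases upstream of DCK, SLC29A1 and SAMHD1 are shown because these 3 genes had called IM effects in KBM5, SAMHD1 in the opposite direction to the other two, in cells some of which had received a demethylating agent. They come from RefSeq (GRCh38.p14), 250 bases ending at the annotated start of each gene, and were searched on both strands for CACGTG (E-box), TTCCCGC or TTGGCGC (E2F), CCAAT and also for GGGCGG (GC box) and TGACGTC (CRE). Capitals mark every match. DCK lies at chr4:70993649-71030914 on the plus strand with its window at chr4:70993399-70993648, SLC29A1 at chr6:44219615-44234142 on the plus strand with its window at chr6:44219365-44219614, and SAMHD1 at chr20:36889773-36951708 on the minus strand with its window at chr20:36951709-36951958.
DCK: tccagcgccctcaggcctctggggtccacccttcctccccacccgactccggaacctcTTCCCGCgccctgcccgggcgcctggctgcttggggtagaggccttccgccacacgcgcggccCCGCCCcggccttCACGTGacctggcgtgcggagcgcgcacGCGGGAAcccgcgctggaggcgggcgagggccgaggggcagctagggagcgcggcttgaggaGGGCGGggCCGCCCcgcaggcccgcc
SLC29A1: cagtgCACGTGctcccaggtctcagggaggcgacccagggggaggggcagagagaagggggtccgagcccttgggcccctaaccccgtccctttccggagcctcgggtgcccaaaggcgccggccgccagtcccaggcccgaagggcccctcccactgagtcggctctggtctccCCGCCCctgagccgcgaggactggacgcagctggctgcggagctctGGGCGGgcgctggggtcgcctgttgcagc
SAMHD1: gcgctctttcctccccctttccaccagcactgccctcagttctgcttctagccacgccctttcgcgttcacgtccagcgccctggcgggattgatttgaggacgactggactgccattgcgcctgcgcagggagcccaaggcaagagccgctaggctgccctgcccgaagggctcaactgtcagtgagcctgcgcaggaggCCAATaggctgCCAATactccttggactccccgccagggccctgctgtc

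The DCK window held 2 E2F matches, 1 E-box and 3 GC boxes, the SLC29A1 window 1 E-box and 2 GC boxes, and the SAMHD1 window 2 CCAAT matches and no other. Of 35116 windows of the same length, 7.81% held an E2F match, 6.34% an E-box, 42.6% a GC box, 32.0% a CCAAT match and 3.12% a CRE match. CpG dinucleotides, the sites of DNA methylation, numbered 31 in the DCK window, 19 in the SLC29A1 window and 14 in the SAMHD1 window, against a median of 11. The CDA window (chr1:20588847-20589096) held 5. A match is a string of letters and does not show binding, and methylation was not measured. Of the 8 measured members, 7 had a RefSeq window and SLC29A2 had none here. A second SLC29A1 window, at chr6:44223345-44223594, held no E-box, 3 GC boxes and 27 CpG. That window and the one given for DCTPP1 lie wholly or largely inside the annotated gene and are not shown.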

How the data were processed

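The authors deposited linear intensities per probe set for 8 arrays of total RNA labelled with biotin, 1 per line and treatment, per the labels. The array software and any normalization were not given in the sources used here. Among 24351 probe sets, 17709 carried 1 gene symbol in the supplied annotation and none carried several, giving 17687 genes. Of 20 genes with more than 1 probe set the brightest was used. Intensities were taken as log2 without further normalization. Where one side of a comparison was at background throughout, a fold is a bound ("at least") computed from log2 means, with each array at background set to its background. The SE and p come from the measured values.

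Limma 3.58.1 in R 4.3.3 fitted line plus treatment (3 residual degrees of freedom, 3.765 prior) for effects over both lines and for the line difference, and a baseline, OR21 term and IM term per line (2 residual, 8.309 prior) for the rest. The 95% intervals are from these fits and are not adjusted. The fits were tested on simulated data. The members, gene lists and tests were chosen with earlier results of these data known. All members were named. Of the other pathway genes up to 4 called per direction and contrast were, and others were named after their values were seen. For likeness, the 3 nearest genes of each member with a log2 range of at least 1 were named. The alternatives tried were trend and robust moderation, quantile normalization, log2(value + 16), only the brighter genes, each array left out, no line term, a common interaction, and a 99th percentile background.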

Additional observations from a re-analysis of the deposited data

Results flagged for a closer look

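The IM effect on SLC29A1 differed between K562 and KBM5 by 3.90 log2 units (limma adjusted p = 0.000793), with 2 of 2 pairs higher in K562 and 2 of 2 lower in KBM5. The IM effect on SAMHD1 differed by -3.71 (limma adjusted p = 0.00022), with 2 of 2 pairs higher in KBM5 and 1 of 2 in K562. Both stand out because the test of the difference between the lines passed.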

How the results depend on the processing

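With 1 array per line and treatment, the precision of every value is limited by the number of arrays. No paired analysis was possible because each group holds 1 array and no replicate number pairs arrays across groups. The cell line is a term of the models used. Of 448 recomputed values of single members (7 members, 5 comparisons), 401 kept direction and call, 22 lost the call, 14 gained it and 11 changed sign. Those that changed sign had no call either way. SAMHD1 with IM in K562 was 0.025 after quantile normalization. With each array left out it ranged from -0.25 to 0.075, DCTD with IM in K562 from -0.49 to 0.11, the DCTD line difference from -0.13 to 0.11, the DCTD difference of IM effects from -0.077 to 0.53 and that of CMPK1 from -0.40 to 0.098. With no term for line, 0 of 1349 genes and 0 of 2 members were called for IM over both lines, where the line difference enters the residual.

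Members called with 1 array left out numbered 1 to 2 for IM over both lines, 1 to 3 in K562, 4 to 5 in KBM5, 2 to 3 for the difference of IM effects, 3 to 4 for the line difference and 0 to 0 elsewhere. Genes called then numbered 115 to 557 for IM over both lines (1349 with all arrays), 454 to 3201 in K562 (2368), 2722 to 3245 in KBM5 (3780), 611 to 1804 for the difference of IM effects (1796), 4303 to 4976 for the line difference (5664), 0 to 2 for the combination (35), 9 to 31 for OR21 in K562 (16), 54 to 157 in KBM5 (96), 6 to 52 for their difference (18), and 0 to 0 for OR21 over both lines and the interaction. The combination against control called 20 genes after quantile normalization, 22 among the brighter genes, and 0 on log2(value + 16) or without the line. With trend and robust moderation it called 1 member. OR21 in K562 called 4 among the brighter genes, 27 with trend and robust moderation, 5 on log2(value + 16) and 32 with the common interaction. In the same order KBM5 gave 62, 243, 3 and 149. The difference of OR21 effects gave 6, 43 and 2 under the first 3. The cause of these shifts was not tested. At the 99th percentile of negative controls, which lay between 768 and 2016, 6 rather than 7 members were above background on at least 1 array. SLC29A2 was then above it on 0 of 8 arrays, DCK on 2, SAMHD1 on 3, DCTPP1 on 4 and SLC29A1 on 6. CMPK1 and DCTD stayed above it on all 8. Every K562 value of DCK and SAMHD1 lay below that cutoff.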
